A study of Homo sapiens with 24 samples.

Results

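BT549 and MDAMB231 are the 2 lines with mesenchymal-like expression among the 4 human breast cancer cell lines of the study, and their libraries with the control hairpin were compared with each other across all genes. The members were chosen by label: 3 BT549 shNT libraries and 3 MDAMB231 shNT libraries, 6 of the 24 libraries in all. The study set a lentiviral hairpin that targets ADAR1 (shADAR1) against a non-targeting one (shNT) in BT549, HCC1806, MDAMB231 and MDAMB468. All 6 libraries therefore come from cells that had been infected with a lentivirus for 24 h and held in puromycin at 2 µg/ml for 72 h, and they do not show untouched cells. Each library was made from 1 µg of total RNA with a kit that depletes ribosomal RNA, so transcripts without a poly(A) tail could be counted as well. The labels call the 3 libraries of a group biological replicates, and each group is a single established cell line.

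As background, epithelial cells hold together through E-cadherin, desmosomes and keratin filaments, and rest on laminin through integrins. Cells in a mesenchymal state rely instead on vimentin filaments, N-cadherin and a fibrillar matrix of collagens and fibronectin, under transcription factors of the ZEB, SNAI and TWIST families. BT549 and MDAMB231 are both widely used as mesenchymal-like, invasive breast cancer lines. MDAMB231 is known to carry an activating mutation in BRAF and a deletion at CDKN2A, and BT549 is known for loss of RB1. Genotype was not measured here.

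Total counts of the 6 libraries ran from 10370645 in MDAMB231 replicate 1 to 68987414 in BT549 replicate 2, and every pair of replicates differed by more than sampling noise. The first principal component held 97.9% of the variance and separated the lines. The second held 1.05% and set MDAMB231 replicate 2 apart from replicates 1 and 3 of its line. ADAR, the targeted gene of the study, checked the labels: its deposited level was 473 to 530 CPM (a gene's counts scaled to a library of fixed size) in the BT549 shNT libraries and 109 to 153 CPM in the shADAR1 libraries of that line. In MDAMB231 it was 289 to 304 CPM with shNT and 54.4 to 73.0 CPM with shADAR1.

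The name mesenchymal-like, which the sample titles do not give, was checked against marker lists in the 12 shNT libraries of the 4 lines. Summed CPM of 21 mesenchymal genes was 10220 to 12740 in BT549, 5215 to 5810 in MDAMB231, 404 to 753 in HCC1806 and 211 to 260 in MDAMB468. Summed CPM of 25 epithelial genes ran the other way, at 67.5 to 73.9 in BT549, 449 to 548 in MDAMB231, 4727 to 5059 in HCC1806 and 4110 to 4842 in MDAMB468. On both sums MDAMB231 lay between BT549 and the other two lines. VIM, the vimentin gene, made up most of the mesenchymal sum in MDAMB231, at 4353 CPM on average on the scale of these 12 libraries. By number of the 21 mesenchymal genes at 5 CPM or more, MDAMB231 (12 to 13) was close to HCC1806 (9 to 12). BT549 had 18 such genes and MDAMB468 had 8. CDH1, which encodes E-cadherin, had 10, 4 and 2 counts in the BT549 libraries and 0, 5 and 5 in the MDAMB231 libraries, too few to test. Over 12 markers of blood, endothelial, fat and liver cells, summed CPM was 2.13 to 2.43 in BT549 and 5.72 to 6.47 in MDAMB231. None of the 12 reached 5 CPM in any of these libraries. HBB was at 0 in all 6 libraries, and PECAM1, an endothelial adhesion molecule, made up most of the MDAMB231 sum at 4.49 CPM on average. KDR, an endothelial receptor outside the 12, measured 7.52, 5.15 and 4.86 CPM in MDAMB231 and averaged 0.635 CPM in BT549, past 2-fold by the rule given below. Fibroblast markers were not among the 12 either, and the collagens that mark those cells are given below.

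The lines differed at a large share of genes. Of 37416 genes listed, 17099 had enough counts to test, and 10923 of these (63.9%) differed at an adjusted p under 0.05 in edgeR's quasi-likelihood test, 5463 higher in BT549 and 5460 higher in MDAMB231. Because that test calls most genes, the counts below use a stricter rule: edgeR's test of whether a difference exceeds 2-fold, adjusted over all 17099 genes, called past 2-fold here. It named 4354 genes (25.5%), of which 1938 (11.3%) were higher in BT549 and 2416 (14.1%) were higher in MDAMB231. In all but 3 of the 4354 genes the libraries of the lines did not overlap. With 3 libraries per line the rule on size largely brings this about, so it adds no separate evidence. Requiring at least 10 counts in every library, which drops genes absent from one line, left 2222. The median log2 difference over all tested genes, coded as BT549 minus MDAMB231, was -0.004. The shares of 11.3% higher in BT549 and 14.1% higher in MDAMB231 are the reference for the count of every gene list below. Levels below are TMM-scaled CPM, given for replicates 1, 2 and 3 in that order, or as a mean, with ± for the SD over the 3 libraries. A gene at 0 in a line is given a lower bound on the fold, set by 3 counts over that line's 3 libraries.

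**Figure D1:**
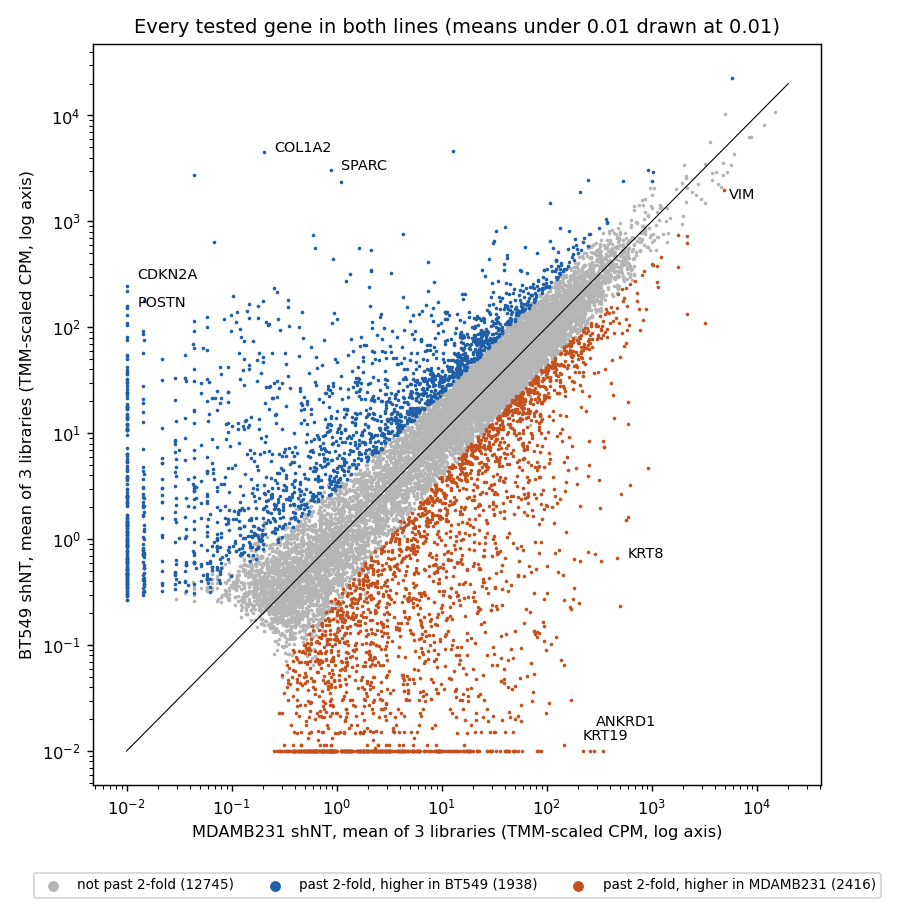
Mean TMM-scaled CPM of every tested gene in MDAMB231 shNT (horizontal) and BT549 shNT (vertical) on log axes, with means under 0.01 drawn at 0.01 and genes past 2-fold in blue (higher in BT549) or orange (higher in MDAMB231). The 1938 genes higher in BT549 and the 2416 higher in MDAMB231 lie on either side of the diagonal, and genes such as POSTN and CDKN2A lie at the edge where MDAMB231 has no count.

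Mesenchymal genes were mostly higher in BT549. Of 20 tested members, 15 were past 2-fold higher in BT549 and 2 higher in MDAMB231, with a median log2 difference of 3.01. TWIST1 (chr7:19020991-19117672), a transcription factor of the mesenchymal state, measured 124, 118 and 90.5 CPM in BT549 and had no count in MDAMB231, at least 3773-fold lower there. POSTN (chr13:37562583-37598844), which encodes the matrix protein periostin, measured 201, 212 and 251 CPM in BT549 and likewise had no count in MDAMB231. Both were present in every library of one line and absent from every library of the other.

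SPARC (chr5:151661096-151687165), a collagen-binding matrix protein, measured 3266, 3135 and 2678 CPM in BT549 and 1.69, 0.374 and 0.564 CPM in MDAMB231. CDH2, which encodes N-cadherin, measured 248, 246 and 209 CPM in BT549 and 0.188, 0.352 and 0.217 CPM in MDAMB231. PRRX1, a mesenchymal homeobox factor, averaged 47.4 CPM in BT549 and 0.9999 CPM in MDAMB231. For these genes every BT549 library was well above every MDAMB231 library, although both lines carry the mesenchymal label.

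Other mesenchymal genes were close or went the other way. VIM, which encodes vimentin, measured 2488, 2336 and 1907 CPM in BT549 and 4627, 4443 and 3802 CPM in MDAMB231. The libraries did not overlap, but the difference toward MDAMB231 was not past 2-fold (log2 difference -0.94, SE 0.13). ZEB1, a repressor of epithelial genes, measured 117, 123 and 133 CPM in BT549 and 139, 122 and 133 CPM in MDAMB231, with overlapping libraries and a log2 difference of -0.08 (SE 0.09). The members past 2-fold higher in MDAMB231 were S100A4, a calcium-binding protein, and TGFBI, a secreted matrix protein. S100A4 measured 94.3, 48.6 and 106 CPM in MDAMB231 against a mean of 21.96 CPM in BT549, and TGFBI measured 49.5, 19.1 and 47.7 CPM against a mean of 2.18 CPM. In both, replicate 2 was the lowest MDAMB231 library and still above every BT549 library.

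Epithelial genes were mostly higher in MDAMB231, at levels far under those of HCC1806 and MDAMB468. Of 21 tested members, 13 were past 2-fold higher in MDAMB231 and 2 higher in BT549, with a median log2 difference of -2.52. EPCAM, an epithelial adhesion molecule, measured 7.89, 10.8 and 8.03 CPM in MDAMB231 and had no count in BT549, while the HCC1806 and MDAMB468 means were 293 and 253 CPM. DSP, the desmosomal linker desmoplakin, averaged 208 CPM in MDAMB231 and 2.07 CPM in BT549. The members higher in BT549 were CDH3, which encodes P-cadherin, at 44.2 against 0.146 CPM, and GRHL2, under 1 CPM in both lines. That count was 1 without BT549 replicate 3 or without MDAMB231 replicate 3.

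The keratins, which form the filaments of epithelial cells, were higher in MDAMB231 wherever they differed. Of 15 keratins, 8 had enough counts to test, and 7 of these were past 2-fold higher in MDAMB231 and none higher in BT549. KRT19 (chr17:41523617-41528308) measured 296, 303 and 245 CPM in MDAMB231 and had no count in BT549, at least 15870-fold lower there. KRT18 (chr12:52948871-52952901) measured 199.8, 249 and 217 CPM in MDAMB231 and had 1 count in the 3 BT549 libraries together, a pooled ratio of 38800 with a 95% counting interval of 6963 to 1533000. KRT8, the partner of KRT18 in simple epithelia, measured 449, 498 and 447 CPM in MDAMB231 and 0.551, 0.623 and 0.826 CPM in BT549. Every BT549 library was nearly free of these keratins and every MDAMB231 library held them. KRT80 passed neither test, at 134, 128 and 91.4 CPM in BT549 and 137, 150.3 and 143 CPM in MDAMB231.

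**Figure D2:**
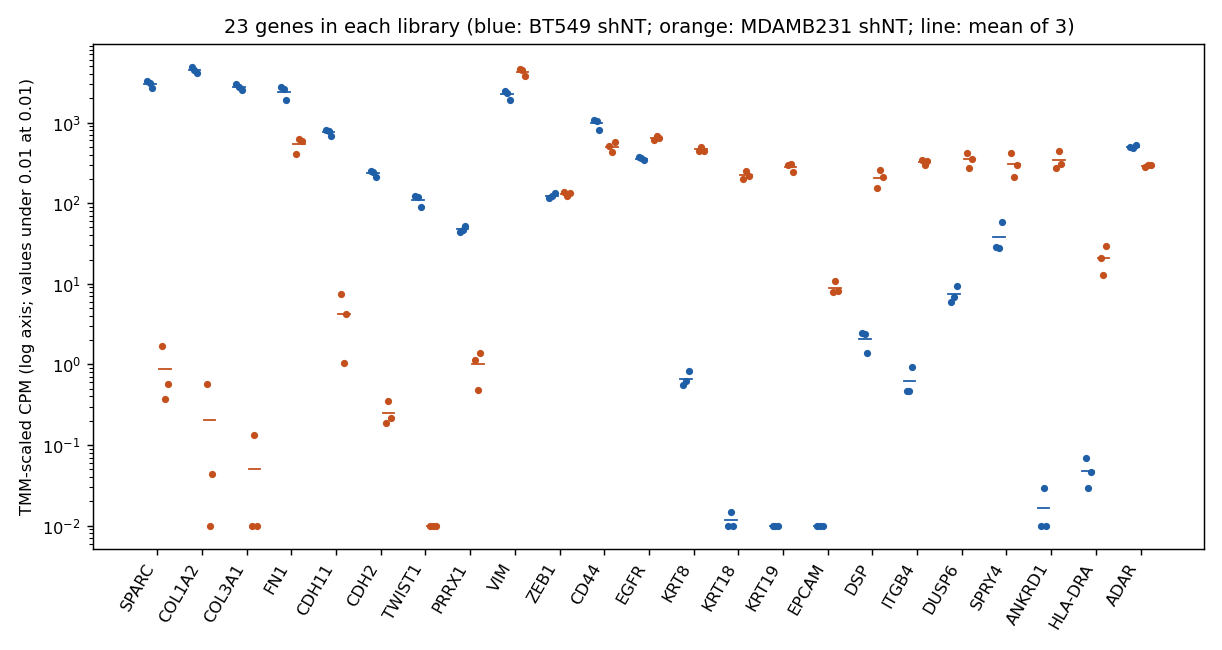
TMM-scaled CPM on a log axis of single genes in each of the 6 libraries, blue for BT549 shNT and orange for MDAMB231 shNT, with values under 0.01 drawn at 0.01 and a line at the mean of the 3 drawn values. SPARC, COL1A2 and TWIST1 are high in the BT549 libraries, KRT8, KRT18 and KRT19 in the MDAMB231 libraries, and the libraries of ZEB1 mix.

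Fibrillar collagens took a large share of the RNA counted in BT549. The 34 genes of the collagen and matrix list held 1.83% to 1.98% of all counts in the BT549 libraries and 0.222% to 0.261% in the MDAMB231 libraries. Of 32 tested members, 15 were past 2-fold higher in BT549 and 6 higher in MDAMB231, with a median log2 difference of 1.37. COL1A2 (chr7:94394561-94431232), a chain of type I collagen, measured 4898, 4469 and 4148 CPM in BT549 and 0.564, 0 and 0.0434 CPM in MDAMB231. COL1A1, the other chain, measured 5063, 4517 and 4355 CPM in BT549 and 13.6, 9.51 and 15.2 CPM in MDAMB231. COL3A1 (chr2:188974320-189012746), the chain of type III collagen, measured 3018, 2786 and 2502 CPM in BT549 and 0, 0.132 and 0 CPM in MDAMB231. In each of these chains the lowest BT549 library exceeded the highest MDAMB231 library by more than the spread within either line.

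A smaller set of matrix genes went the other way. COL13A1, a membrane-spanning collagen, measured 525, 509.6 and 470 CPM in MDAMB231 and 0, 0.0593 and 0.642 CPM in BT549. COL8A1, a network-forming collagen, stood at 158 ± 38.7 CPM in MDAMB231 and 5.99 ± 0.753 CPM in BT549. COL7A1, the anchoring fibril of basement membranes, stood at 140.5 ± 41.2 CPM in MDAMB231 and 10.9 ± 2.58 CPM in BT549. Among the collagens named here, some were thus higher in each line. COL7A1 was not particular to MDAMB231, as it averaged 158 CPM in HCC1806.

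Laminins and the integrins that bind matrix leaned to MDAMB231. Of 25 tested members, 12 were past 2-fold higher in MDAMB231 and 3 higher in BT549, with a median log2 difference of -1.38. ITGB4, the integrin chain of hemidesmosomes, measured 346, 299.7 and 334 CPM in MDAMB231 and 0.465, 0.475 and 0.918 CPM in BT549. Its partner ITGA6 measured 605, 418 and 547 CPM in MDAMB231 and 72.97, 79.99 and 114 CPM in BT549, without overlap. ITGA2, a collagen receptor chain, stood at 616 ± 127 CPM in MDAMB231 and 3.23 ± 0.257 CPM in BT549. The members higher in BT549 were ITGA4, a fibronectin receptor chain (73.5 against 0.1599 CPM), ITGA10 (74.9 against 19.9 CPM) and the laminin chain LAMC1 (990.1 against 376 CPM).

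Cadherins differed by member. Of 24 tested cadherins and protocadherins, 11 were past 2-fold higher in BT549 and 5 higher in MDAMB231. CDH6 averaged 76.2 CPM in BT549 and had 2 counts in MDAMB231. PCDH19 measured 144, 144 and 73.6 CPM in BT549, lowest in replicate 3, and had 5 counts in MDAMB231. CDH4 ran the other way, at 127 ± 22.03 CPM in MDAMB231 and 0.486 ± 0.0726 CPM in BT549.

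**Figure D3:**
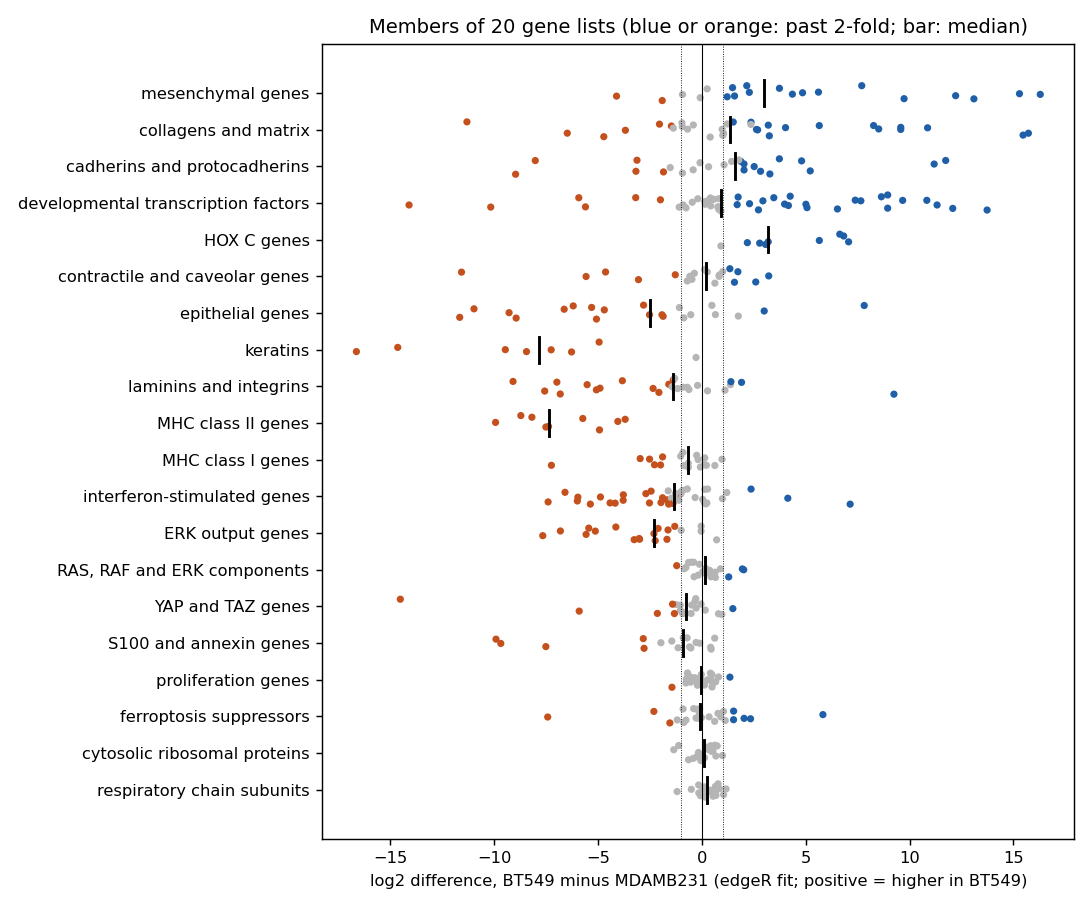
Fitted log2 difference (BT549 minus MDAMB231) of each tested member of the gene lists, blue or orange where past 2-fold higher in BT549 or in MDAMB231, with a bar at each list's median; values of genes at or near 0 in one line depend on the fit. Mesenchymal and HOX C genes lie mostly to the BT549 side, keratins, MHC class II and ERK output genes to the MDAMB231 side, and ribosomal and respiratory genes near 0.

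Developmental transcription factors were more often higher in BT549. Of 45 tested, 22 were past 2-fold higher in BT549 and 6 higher in MDAMB231, with a median log2 difference of 0.91. FOXD1, a forkhead factor, measured 40.7, 35.2 and 36.8 CPM in BT549 and had no count in MDAMB231. TBX18, a T-box factor, averaged 57.2 CPM in BT549 and had 2 counts in MDAMB231. FOXQ1, another forkhead factor, ran the other way, with 44.1, 58.8 and 42.4 CPM in MDAMB231 and no count in BT549. LEF1, a partner of beta-catenin, averaged 17.9 CPM in MDAMB231 and had 6 counts in BT549. Forkhead factors thus appeared on either side, as different members.

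The HOX genes, which specify position along the body axis, also split by member. In the HOX C cluster 8 of 9 tested genes were past 2-fold higher in BT549 and none higher in MDAMB231. HOXC6 stood at 20.7 ± 1.95 CPM in BT549 and 2.29 ± 0.9397 CPM in MDAMB231. In the HOX A cluster 5 of 6 tested genes were past 2-fold higher in BT549, all with means under 5 CPM. HOX B genes went both ways: HOXB2 averaged 29.7 CPM in BT549 and 0.302 CPM in MDAMB231, and HOXB9 averaged 0.165 CPM in BT549 and 25.2 CPM in MDAMB231.

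Growth factor receptors leaned to MDAMB231. Of 27 tested receptor tyrosine kinases, 10 were past 2-fold higher in MDAMB231 and 4 higher in BT549. Over all tested genes the shares were 14.1% and 11.3%, so only the count toward MDAMB231 was well above its share. AXL, a receptor linked to the mesenchymal state, measured 2214, 2505 and 1841 CPM in MDAMB231 and 749, 722 and 418 CPM in BT549. EGFR measured 616, 673 and 651 CPM in MDAMB231 and 370.2, 359 and 345 CPM in BT549, without overlap but not past 2-fold. DDR2, a receptor for fibrillar collagen, ran the other way at 319 ± 35.3 CPM in BT549 and 1.33 ± 0.424 CPM in MDAMB231. ERBB2 overlapped between the lines, at 92.8 ± 5.95 and 88.6 ± 8.56 CPM.

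Of 24 tested growth factor ligands, 10 were past 2-fold higher in MDAMB231 and 2 higher in BT549. TGFA, a ligand of EGFR, measured 51.3, 34.3 and 54.4 CPM in MDAMB231 and had 6 counts in BT549. EREG, another EGFR ligand, measured 20.3, 16.2 and 19.1 CPM in MDAMB231 and had no count in BT549. AREG, of the same ligand family, measured 28.8, 5.41 and 17.7 CPM in MDAMB231, lowest in replicate 2, and had 1 count in BT549. FGF2, a fibroblast growth factor, ran the other way at 154 ± 11.9 CPM in BT549 and 0.347 ± 0.271 CPM in MDAMB231.

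Genes known to be induced by ERK, the kinase at the end of the RAS pathway, were higher in MDAMB231. Of 19 tested members, 15 were past 2-fold higher in MDAMB231 and none in BT549, with a median log2 difference of -2.31. The list held 0.447% to 0.624% of all counts in the MDAMB231 libraries and 0.101% to 0.135% in the BT549 libraries. DUSP6 (chr12:89347232-89353271), a phosphatase that acts on ERK, measured 421, 273 and 356 CPM in MDAMB231 and 5.87, 6.76 and 9.48 CPM in BT549, a log2 difference of -5.58 (SE 0.23, edgeR adjusted p for more than 2-fold 2.18e-08). DUSP4, of the same family, measured 977, 901 and 888 CPM in MDAMB231 and 2.32, 2.52 and 9.15 CPM in BT549. No BT549 library reached the lowest MDAMB231 library in either gene.

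Some members of that list did not separate the lines. MYC, a growth regulator, measured 183, 190.2 and 156 CPM in BT549 and 223, 164 and 158 CPM in MDAMB231, with overlap. EGR1, an immediate early factor, measured 270.1, 315 and 476 CPM in BT549 and 408, 18.5 and 227 CPM in MDAMB231, with replicate 2 far under the other two libraries of its line. Neither passed the test against 0.

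Among components of the RAS, RAF and ERK pathway itself the share past 2-fold was near that of all tested genes (25.5%). Of 21 tested, 3 were past 2-fold higher in BT549 (NF2, MRAS and SHC1) and 1 higher in MDAMB231. The latter was MAP2K1, the kinase MEK1 (79.7 against 34.4 CPM), whose call was lost under DESeq2, with no filter on low counts, in the fit of 12 libraries, and without BT549 replicate 1 or 2 or MDAMB231 replicate 2. BRAF measured 29.2, 30.7 and 32.3 CPM in BT549 and 43.4, 36.7 and 39.9 CPM in MDAMB231, without overlap but not past 2-fold. NF2, which encodes the tumour suppressor merlin, measured 133, 127 and 144 CPM in BT549 and 28.8, 36.8 and 33.8 CPM in MDAMB231.

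CDKN2A, which encodes the cell cycle inhibitor p16, and 6 of its 9 listed neighbours had no counts in MDAMB231. CDKN2A (chr9:21967753-21995301) measured 239.9, 243 and 255 CPM in BT549, from 41483 counts, and was at least 8387-fold lower in MDAMB231. CDKN2B (chr9:22002903-22009363), which encodes the related inhibitor p15, averaged 36.4 CPM in BT549. MTAP (chr9:21802543-21937651), an enzyme of methionine salvage, averaged 54.1 CPM in BT549. The gap extended along the chromosome: of the listed neighbours, KLHL9, IFNE, MTAP, CDKN2A, CDKN2B, DMRTA1 and ELAVL2 were at 0 counts in all 3 MDAMB231 libraries, and HACD4 had 2 counts there.

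At the far end of the list, FOCAD was present in MDAMB231 at 11.8 CPM, against 42.5 CPM in BT549, and MLLT3 at 20.4 CPM, against 0.793 CPM in BT549. In HCC1806 CDKN2A and CDKN2B were at 0 as well, while MTAP averaged 43.2 CPM and KLHL9 15.5 CPM. The stretch without counts was therefore longer in MDAMB231 than in HCC1806. From these counts a deletion and silencing cannot be told apart.

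RB1 was present in BT549 RNA at a lower level than in MDAMB231. RB1 (chr13:48303751-48481986), the brake on entry into S phase, measured 18.8, 18.3 and 21.3 CPM in BT549 and 99.01, 79.4 and 89.3 CPM in MDAMB231, and was past 2-fold higher in MDAMB231. LPAR6, a lysophospholipid receptor inside RB1 on the opposite strand, was higher in BT549 instead, at 18.5 ± 2.24 against 2.93 ± 0.418 CPM. Strand use in counting is not stated, so reads of RB1 and LPAR6 cannot be told apart where they overlap.

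**Figure D4:**
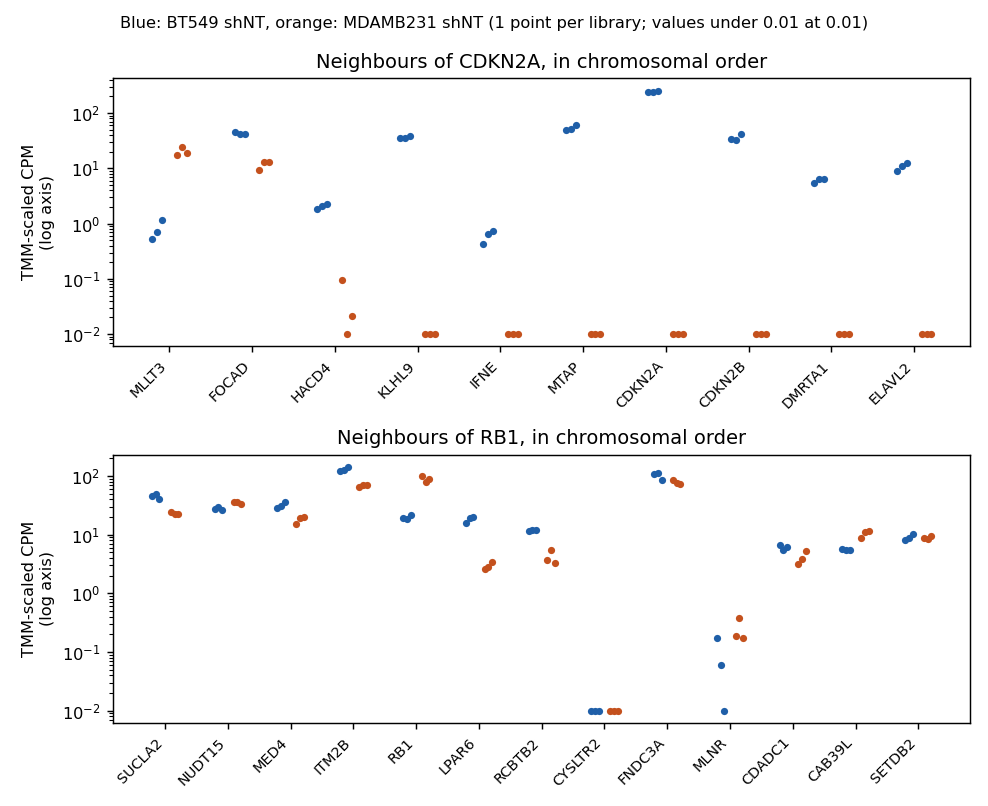
TMM-scaled CPM on a log axis of the genes around CDKN2A and RB1 in chromosomal order, 1 point per library, blue for BT549 shNT and orange for MDAMB231 shNT, with values under 0.01 drawn at 0.01. From KLHL9 to ELAVL2 all MDAMB231 points lie at the floor, and RB1 and LPAR6 differ in opposite directions.

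Few proliferation genes were past 2-fold, against 25.5% of all tested genes. Of 25 tested, 1 was past 2-fold higher in BT549, the helicase subunit MCM4 (504 ± 57.8 against 198 ± 2.35 CPM), and 1 higher in MDAMB231, the replication licensing factor CDC6 (113 ± 12.7 against 41.5 ± 4.27 CPM). Among G1 genes CCND1, which encodes cyclin D1, measured 786, 793 and 744 CPM in MDAMB231 and 98.2, 106 and 76.2 CPM in BT549. CDKN1A, which encodes the inhibitor p21, measured 72.2, 41.5 and 66.3 CPM in MDAMB231 and 8.16, 6.63 and 9.68 CPM in BT549. CDKN2C, which encodes p18, ran the other way at 174 ± 26.4 CPM in BT549 and 45.2 ± 5.91 CPM in MDAMB231. The libraries of the lines did not overlap in any of these genes.

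FAS, a death receptor, averaged 19.7 CPM in BT549 and 3.24 CPM in MDAMB231. PMAIP1, which encodes the apoptosis inducer NOXA, averaged 5.14 CPM in BT549 and 43.8 CPM in MDAMB231. MDM2, a ubiquitin ligase named in the study's title, averaged 37.8 CPM in BT549 and 65.7 CPM in MDAMB231, not past 2-fold.

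Interferon-stimulated genes were more often higher in MDAMB231. Of 40 tested, 19 were past 2-fold higher in MDAMB231 and 3 higher in BT549, with a median log2 difference of -1.34. LGALS3BP, a secreted glycoprotein, measured 319, 299.7 and 342 CPM in MDAMB231 and 1.14, 1.42 and 3.304 CPM in BT549. BST2, which tethers virions to the cell surface, measured 23.2, 6.75 and 23.1 CPM in MDAMB231 and 0.379, 0.148 and 0.321 CPM in BT549. OAS2, an enzyme activated by double-stranded RNA, measured 18.5, 9.42 and 21.2 CPM in MDAMB231 and 0.241, 0.0593 and 0.528 CPM in BT549. For BST2 and OAS2 replicate 2 was the lowest MDAMB231 library and still above every BT549 library, and without it 22 members were past 2-fold higher in MDAMB231.

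The members higher in BT549 were MX2, an antiviral GTPase (44.6 against 0.328 CPM), XAF1, a pro-apoptotic protein (85.7 against 5.22 CPM), and EPSTI1 (4.16 against 0.779 CPM). ISG15, a ubiquitin-like modifier, overlapped between the lines, at 22.6 CPM in BT549 and 28.1 CPM in MDAMB231 on average. Of 22 tested genes in the list of double-stranded RNA sensing, 4 were past 2-fold higher in MDAMB231 and none in BT549. The list was drawn broadly, and CGAS, 1 of the 4, senses DNA rather than RNA. The shares over all tested genes were 14.1% and 11.3%. CGAS measured 66.5, 77.03 and 63.1 CPM in MDAMB231 and 0.0344, 0.119 and 0.459 CPM in BT549. RIGI, a sensor of viral RNA, stood at 64.4 ± 5.11 CPM in MDAMB231 and 7.12 ± 1.89 CPM in BT549. EIF2AK2, the kinase PKR, averaged 137 and 140 CPM, with overlap. ADAR measured 503, 484 and 519.5 CPM in BT549 and 281, 294 and 299 CPM in MDAMB231, without overlap but not past 2-fold.

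Antigen presentation genes past 2-fold were higher in MDAMB231. All 9 tested MHC class II genes were past 2-fold higher in MDAMB231. HLA-DRA, a class II chain, measured 20.7, 12.9 and 29.7 CPM in MDAMB231 and 0.0688, 0.0297 and 0.0459 CPM in BT549. CD74, the chain that escorts class II molecules, measured 214, 88.9 and 244 CPM in MDAMB231 and 0.482, 0.445 and 1.03 CPM in BT549. Replicate 2 was again the lowest MDAMB231 library in both. In MHC class I, 6 of 19 tested genes were past 2-fold higher in MDAMB231 and none in BT549. The shares over all tested genes were 14.1% and 11.3%. By the test against 0, 11 were higher in MDAMB231 and 2 in BT549. The summed counts ran the other way: the class I list held 0.474% to 0.486% of all counts in the BT549 libraries and 0.379% to 0.446% in the MDAMB231 libraries. HLA-B stood at 84.96 ± 12.8 CPM in MDAMB231 and 10.8 ± 0.902 CPM in BT549, while HLA-C overlapped, at 126 and 146 CPM. HLA genes are near-identical and polymorphic, so reads can be lost or split among them and these values are uncertain.

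Ferroptosis, an iron-dependent death by lipid peroxidation named in the study's title, was followed with lists of suppressors and promoters. Of 25 tested suppressors, 5 were past 2-fold higher in BT549 and 3 higher in MDAMB231. HMOX1, haem oxygenase, measured 424, 422 and 405 CPM in BT549 and 7.99, 5.98 and 8.31 CPM in MDAMB231. FTH1, the ferritin heavy chain, stood at 819.5 ± 113 CPM in BT549 and 162 ± 11.8 CPM in MDAMB231, and NQO1, a quinone reductase, at 519.7 ± 41.1 and 127 ± 23.1 CPM. SCD, which makes monounsaturated fatty acids, averaged 2947 CPM in BT549 and 1025 CPM in MDAMB231. GCH1 and MBOAT1 went the other way, at 8.38 and 6.42 CPM in MDAMB231 and 1.69 and 2.22 CPM in BT549. The call of MBOAT1 was lost under some alternatives. GPX4, the peroxidase that clears lipid peroxides, averaged 256 and 135 CPM, and SLC7A11, the cystine importer, 51.5 and 87.8 CPM, neither past 2-fold. Of 22 tested promoters, 3 were past 2-fold higher in BT549 and none in MDAMB231. For both lists the shares over all tested genes were 11.3% higher in BT549 and 14.1% higher in MDAMB231. ACSL4, which activates polyunsaturated fatty acids for lipid synthesis, overlapped, at 152 CPM in BT549 and 151 CPM in MDAMB231.

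SLC16A1 and SLC16A3, both lactate carriers, differed in opposite directions. SLC16A1 measured 141, 149.9 and 131 CPM in BT549 and 0.4697, 0.528 and 0.412 CPM in MDAMB231. SLC16A3 measured 4.302, 4.45 and 5.32 CPM in BT549 and 197, 176 and 199 CPM in MDAMB231. SLC16A7, of the same carrier family and named after its values were seen, averaged 31.8 CPM in MDAMB231 and had 2 counts in BT549. Housekeeping lists give a reference: none of 19 cytosolic ribosomal protein genes and none of 24 respiratory chain genes was past 2-fold in edgeR. By the test against 0, 11 ribosomal and 13 respiratory genes differed. Without BT549 replicate 2 or MDAMB231 replicate 2, 1 ribosomal gene was past 2-fold, and 2 respiratory genes were without BT549 replicate 3 and 1 without MDAMB231 replicate 2.

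Among the widest differences in CPM were a few abundant transcripts. MALAT1, a nuclear long non-coding RNA, measured 19470, 20590 and 28170 CPM in BT549 and 6511, 4414 and 6652 CPM in MDAMB231. HMGA1, a chromatin protein, measured 3600, 3385 and 2680 CPM in MDAMB231 and 112, 106 and 112 CPM in BT549. IGFBP4, a binding protein of insulin-like growth factors, averaged 2189 CPM in MDAMB231 and 134 CPM in BT549. The lines did not overlap in any of these.

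Genes present in one line and absent from the other were counted by a limit of at most 3 counts in each library of one line and a mean of at least 5 CPM in the other. By this limit 97 genes were present only in BT549, 56 of them with no count in MDAMB231, and 137 only in MDAMB231, 62 of them with no count in BT549. A limit of 0 counts left 118 of the 234, and a mean of at least 1 CPM gave 544. Present only in BT549 were, among others, GAS1, a hedgehog co-receptor (153 ± 21.5 CPM), MME, the surface peptidase CD10 (81.6 ± 1.63 CPM), and SFRP2, a secreted WNT modulator (75.5 ± 11.1 CPM). Present only in MDAMB231 were, among others, PKP2, a desmosomal plakophilin (57.97 ± 9.61 CPM), VAMP8, a vesicle fusion protein (40.3 ± 3.46 CPM), MT1E, a metallothionein (87.4 ± 16.7 CPM), and ANKRD1, a target of YAP (342 ± 89.7 CPM). MT1E has near-identical copies in the genome, so its reads may be shared with them.

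Genes of this kind lay next to each other, in the order of tested genes, in 5 runs of 3. A run ended at any tested gene that missed the limits. KLHL9, MTAP, CDKN2A, CDKN2B, DMRTA1 and ELAVL2, near each other on chromosome 9, were also present only in BT549 but formed no such run. IFNE, which lies among them, had no count in MDAMB231 but averaged only 0.606 CPM in BT549. ZIC4, ZIC1 and AGTR1 (chr3:147386046-148743008) and C14orf132, BDKRB2 and BDKRB1 (chr14:96039324-96268967) were present only in BT549. AASS, FEZF1 and CADPS2 (chr7:122075647-122886759), CRACR2A, PARP11 and CCND2 (chr12:3606633-4305350), and LINC00261, FOXA2 and THBD (chr20:22547671-23049741) were present only in MDAMB231. ZIC1 and ZIC4 are zinc finger factors of neural development, BDKRB1 and BDKRB2 the bradykinin receptors, and FOXA2 a pioneer factor of endoderm.

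The promoter windows of 4 such genes, chosen after their values were seen, show the range of base composition among genes present in one line only. Each window runs from 250 bases before to 50 bases after a gene's start in RefSeq on GRCh38.p14, is written 5′ to 3′ on the gene's strand, and has every CG dinucleotide, the usual site of DNA methylation, in capitals.
MGMT: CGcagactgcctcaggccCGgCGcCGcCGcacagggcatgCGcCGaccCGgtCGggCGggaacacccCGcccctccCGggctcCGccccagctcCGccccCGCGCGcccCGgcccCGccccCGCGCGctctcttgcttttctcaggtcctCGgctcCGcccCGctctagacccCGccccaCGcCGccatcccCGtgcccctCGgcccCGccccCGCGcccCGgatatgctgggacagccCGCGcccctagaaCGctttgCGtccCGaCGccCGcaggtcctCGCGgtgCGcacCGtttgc
POSTN: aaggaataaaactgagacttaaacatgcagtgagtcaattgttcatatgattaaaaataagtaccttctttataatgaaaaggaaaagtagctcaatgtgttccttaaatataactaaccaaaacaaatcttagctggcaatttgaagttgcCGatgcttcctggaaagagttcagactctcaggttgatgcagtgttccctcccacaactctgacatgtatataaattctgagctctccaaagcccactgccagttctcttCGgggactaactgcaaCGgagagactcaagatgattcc
PDLIM4: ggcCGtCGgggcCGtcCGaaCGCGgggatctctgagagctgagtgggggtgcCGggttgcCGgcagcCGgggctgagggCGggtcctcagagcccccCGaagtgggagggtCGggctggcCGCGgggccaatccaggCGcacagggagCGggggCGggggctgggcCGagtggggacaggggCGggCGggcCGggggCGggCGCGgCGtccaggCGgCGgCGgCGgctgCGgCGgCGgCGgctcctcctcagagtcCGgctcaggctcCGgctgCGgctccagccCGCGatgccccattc
ANKRD1: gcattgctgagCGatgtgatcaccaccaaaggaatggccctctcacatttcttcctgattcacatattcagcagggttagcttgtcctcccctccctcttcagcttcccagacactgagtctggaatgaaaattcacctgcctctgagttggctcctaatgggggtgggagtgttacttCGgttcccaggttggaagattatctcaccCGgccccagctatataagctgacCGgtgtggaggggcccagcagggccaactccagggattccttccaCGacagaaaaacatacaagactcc
The window of MGMT, which repairs alkylated guanine, is chr10:129466991-129467290 on the plus strand and holds 45 CG. MGMT measured 20.3, 20.2 and 16.2 CPM in BT549 and had no count in MDAMB231. The window of POSTN is chr13:37598719-37599018 on the minus strand and holds 3 CG. That of PDLIM4, an actin-associated protein, is chr5:132257446-132257745 on the plus strand and holds 38 CG. PDLIM4 measured 31.1, 27.6 and 32.1 CPM in MDAMB231 and had no count in BT549. The window of ANKRD1 is chr10:90921038-90921337 on the minus strand and holds 5 CG, and the gene measured 274, 444 and 308 CPM in MDAMB231 and had 2 counts in BT549. Windows rich and poor in CG thus occurred on either side.

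Over sets of genes, the windows of symbols with a single RefSeq entry were described. The median count of CG was 26 over 8691 tested genes, 25 over 55 genes present only in BT549 and 18.5 over 66 present only in MDAMB231. Windows with fewer than 10 CG made up 13.7% of tested genes, 14.5% of the BT549 set and 33.3% of the MDAMB231 set. Among genes past 2-fold the shares were 18.3% for those higher in BT549 and 29.3% for those higher in MDAMB231. Over all 22114 windows, expressed or not, the share was 46.3%.

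The letters TGANTCA, with N as any base, were searched on both strands. They are a loose form of the site bound by AP-1 factors, so not every match need be such a site. They were in 4.91% of windows of tested genes, in 5.27% of 929 windows of genes past 2-fold higher in BT549 and in 9.42% of 1147 windows of those higher in MDAMB231, against 8.05% of all windows. The letters TATAAA, the TATA box, searched on both strands, were in 6.58%, 9.15%, 10.6% and 12.7% of the same sets. The searches were independent, and a window may hold both motifs. The windows of POSTN and ANKRD1 hold the TGANTCA letters, as tgagtca in POSTN and tgattca in ANKRD1, and that of POSTN holds the TATA letters as well.

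By chromosome, the median log2 difference of protein-coding genes with at least 5 CPM was 0.04 over all 11492. Toward BT549 it was highest on chromosome 13 (0.79, 205 genes) and X (0.75, 386 genes), then 20 (0.52, 323 genes) and 8 (0.49, 399 genes). Toward MDAMB231 it was -0.517 on chromosome 6 (607 genes) and -0.505 on chromosome 10 (446 genes). RB1 lay against the lean of its chromosome 13. For 13 mitochondrial genes the median was -0.527, and mitochondrial genes held 3.15% to 4.08% of all counts in the BT549 libraries and 4.92% to 6.03% in the MDAMB231 libraries.

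The difference between the lines was measured again in the 6 libraries of the same lines that carried the ADAR1 hairpin. Of 17825 genes tested there, 4658 (26.1%) were past 2-fold, 2104 higher in BT549 and 2554 higher in MDAMB231. Of the calls, 3889 were made in the same direction under both hairpins, 89.3% of those with shNT and 83.5% of those with shADAR1, and none was made in opposite directions. Of 4274 shNT calls tested under shADAR1, 4272 had the same sign.

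**Figure D5:**
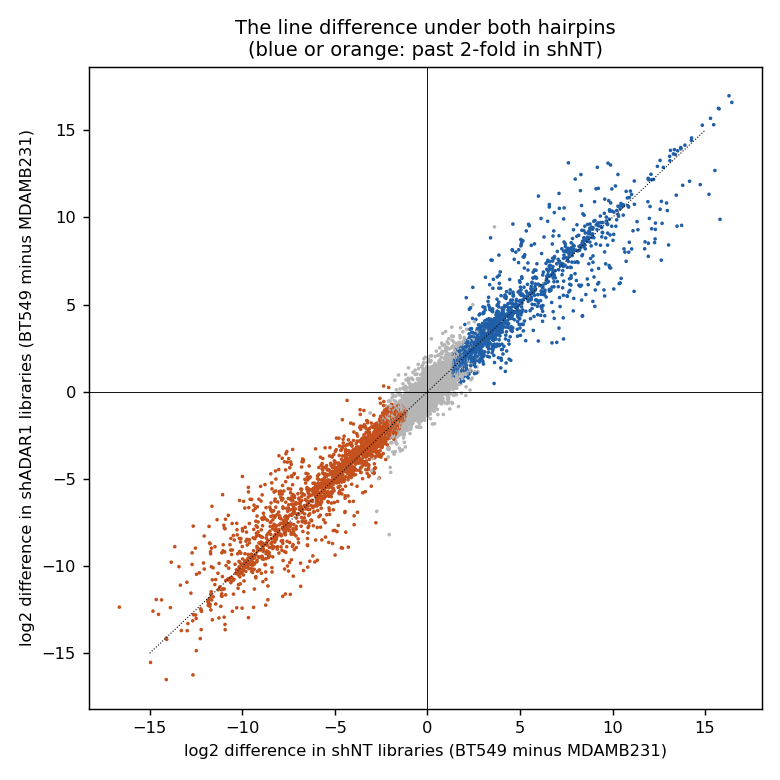
Fitted log2 difference between the lines (BT549 minus MDAMB231) in the shNT libraries (horizontal) and in the shADAR1 libraries (vertical) for every gene tested in both, blue or orange where past 2-fold higher in BT549 or MDAMB231 in shNT. Points lie along the line of equal values, and 4272 of 4274 coloured points keep their sign.

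Each of the 2 lines was also tested against each of the other 3 lines in the 12 shNT libraries, over 19537 genes. BT549 was past 2-fold above all 3 at 722 genes (3.7%) and below all 3 at 984 (5.04%). MDAMB231 was above all 3 at 643 genes (3.29%) and below all 3 at 480 (2.46%). Of the 1938 genes past 2-fold higher in BT549, BT549 was the line apart at 718 (37%) and MDAMB231 at 416 (21.5%). Of the 2416 higher in MDAMB231, BT549 was the line apart at 856 (35.4%) and MDAMB231 at 641 (26.5%). These shares overlap, because a gene could count for both lines. GNG4, for example, was above all 3 other lines in BT549 and below all 3 in MDAMB231. KRT18 and KRT19 were present in HCC1806 and MDAMB468 too, at 488 and 440.2 CPM for KRT18 and 867 and 1350 CPM for KRT19. HLA-DRA was at 0 and 0.0237 CPM in those lines, and so was near 0 in all but MDAMB231.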

How the data were processed

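RNA-seq reads per gene were analysed in 6 libraries, 3 of BT549 shNT and 3 of MDAMB231 shNT, with the other 18 used only where named. The deposited files hold whole-number counts per gene and, per the file headers, CPM and RPKM. Deposited CPM equalled a gene's share of the library's total count, and deposited RPKM was not used in any test. Per the submitters' processing notes, bcl2fastq, STAR, Subread, featureCounts and edgeR were used. The genome build, strand use and treatment of reads that match several genes are not given in the sources used here. Coordinates are those the files list. Of 37416 genes, 34265 were in GENCODE 29 on GRCh38, 31357 of them with the same start and end, and 33972 were given a symbol.

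Counts were tested with edgeR 4.0.16 in R 4.3.3, with filterByExpr, TMM scaling and the quasi-likelihood F test between the lines on the 6 libraries. The rule on size was glmTreat at a log2 difference of 1. P-values are 2-sided, adjusted by Benjamini-Hochberg over all tested genes, with a threshold of 0.05. Levels of HCC1806 and MDAMB468 are on the scale of the 12 shNT libraries. Gene lists are described by counts and medians, with no set test. The members and lists were chosen with earlier results of these data known. Named genes are a fixed set of markers and drivers, the 12 widest log2 differences in each direction with a mean of at least 20 CPM, the 3 widest per list and direction with at least 5 CPM, the 6 widest in CPM per direction, and list members that no test called. The other named genes, the promoter windows and the test of each line against the other 3 were chosen after values were seen. Intervals and floors of 3 counts cover counting error only. The scripts were tested on simulated counts. As alternatives, the scaling, the tool (DESeq2 1.42.0), the low-count filter, a replicate block, the libraries in the fit and the genes kept were changed, and single libraries were left out. Some items of the lists and of the named genes are not reported here.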

Additional observations from a re-analysis of the deposited data

How the results depend on the processing

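The number of genes that differed between the lines ran from 8568 to 12066 over the alternatives, against 10923. The number of genes tested changed as well, so these counts are not shares of one total. The lowest came from 12742 tested genes and the highest from 21352, against 17099. With no filter on low counts, 11850 of 27387 differed. With at least 10 counts required in every library, the 4354 genes past 2-fold fell to 2222 (982 higher in BT549 and 1240 in MDAMB231), the calls among list members from 422 to 250 and those among named genes from 208 to 119, since that filter removes genes absent from one line. The 234 genes present in one line only were 118 with a count limit of 0 and 544 with a mean of at least 1 CPM. DESeq2 called 3629 genes past 2-fold, all among the 4354. Leaving out single libraries gave 4131 to 4514 genes past 2-fold. No scaling moved the median log2 difference by as much as 0.1. Replicate numbers are shared between the lines, but same-numbered libraries did not all deviate together (correlations 0.0305, 0.0652 and 0.2129), and with a replicate block 10661 genes differed, 4243 were past 2-fold, and 4578 were in the shADAR1 libraries against 4658. Of values of named genes under the alternatives, 3137 kept direction and side of the threshold, 44 lost the call and 1 reversed: the log2 difference of CD24, a surface marker at -0.175 that passed no test, was -0.353 without MDAMB231 replicate 1 and 0.156 without MDAMB231 replicate 2. The lost calls were in CHAC1, GADD45A, MAP2K1, MBOAT1, MT-ND1, NUAK2, RCBTB2 and SREBF1, and their cause was not tested. Depth limits genes near 0: 3 counts over a line's libraries equal 0.0177 CPM in BT549 and 0.0294 CPM in MDAMB231.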
